A study of Mus musculus with 8 samples.

Results

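The integrin and laminin subunit genes are the receptors and ligands through which cells hold to the basement membrane and to the rest of the extracellular matrix. They were chosen by symbol, as genes named Itga or Itgb for an integrin chain and Lama, Lamb or Lamc for a laminin chain that had a single Ensembl identifier. Of the 50578 genes listed, 35 are described, 25 for integrins and 10 for laminins. Itgam was left out because 2 identifiers carry its symbol. Of the 35 genes, 31 passed the filter on low counts and were tested among 15154 genes, and 4 did not (Itgad, Itgae, Itgb6 and Lamc3).

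RNA-seq was performed on 8 libraries in 4 groups of 2. The cells were wild-type mouse embryonic fibroblasts (MEFs) of the C57BL/6J strain, primary connective tissue cells grown from the trunk of embryos after the head, limbs and inner organs had been taken off, and used at early passage. One group of MEFs was left untreated and each of the others was given 1 small molecule at 10 µM, either carbidopa, LY-364947 or CHIR-99021, and the length of treatment behind the RNA-seq is not given in the sources used here. The methods give 2 h for attachment before a molecule was added, with the medium changed every 3 days. Carbidopa is a blocker of the decarboxylase that makes dopamine from L-DOPA. LY-364947 blocks the kinase of the type I TGF-beta receptor. CHIR-99021 blocks GSK3, a kinase that holds Wnt signaling down. The sample labels spell the second compound LY-364747. All groups share strain, genotype and culture medium, and nothing states that the 2 libraries of a group came from separate cultures, so p-values measure the spread between these libraries, which may be technical. The methods name no solvent control for the untreated MEFs and no matched time in culture for the RNA-seq. Solvent and time in culture therefore cannot be told apart from the molecule in any comparison with MEF.

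The libraries held 15039566 to 20504338 counts. The treated libraries are labelled as hepatic-like cells, but most hepatocyte markers were at or near the floor in every library. Alb held 0 to 2 reads in MEF and 5 to 10 in treated libraries, and Hnf4a 1 to 2 and 6 to 10. Serpina1a held 0. Trf, with 56 to 282 reads, was the one marker of 9 that passed the filter. Against MEF it was higher under carbidopa (log2 fold change 0.80, edgeR adjusted p = 0.0231) and not called under LY-364947 (0.54) or CHIR-99021 (-0.61). The 9 markers summed to 6.54 to 7.48 CPM (the count scaled to the normalized library size) in MEF. They summed to 10.9 to 14.6 CPM under carbidopa, 10.9 to 11 under LY-364947 and 4.47 to 6.56 under CHIR-99021. The summed level of 9 fibroblast markers was 14500 to 14600 CPM in MEF and 5360 to 7400 CPM in treated libraries. Of the MEF level, Col1a1 and Col1a2 made up 4018 and 3855 CPM. Against MEF, 1 of the 9 was called higher and 7 lower under each compound (edgeR adjusted p under 0.05). For carbidopa, LY-364947 and CHIR-99021 in turn, 18%, 13.7% and 18.7% of all tested genes were higher and 19.7%, 17.2% and 20.1% lower. Pdgfra held 3198 and 4086 reads in MEF and 5890 to 8228 in treated libraries. The 2 carbidopa libraries differed from each other by far more than counting noise, with a chi-square per degree of freedom of 34.6 against 4.31 to 9.21 in the other pairs.

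An integrin is a pair of 1 alpha and 1 beta chain that spans the membrane, binding matrix or another cell outside and the actin cytoskeleton through adaptor proteins inside. The alpha chain largely sets what is bound, and most alpha chains in adherent cells pair with beta1. A laminin is a cross-shaped trimer of 1 alpha, 1 beta and 1 gamma chain, the alpha chain carrying the globular end that integrins and dystroglycan bind, and laminin networks together with collagen IV form the basement membrane. Fibroblasts typically make laminins with alpha2 and alpha4, whereas alpha3 and beta3 are chains of epithelial laminins. In bulk RNA, fewer cells of a type and less RNA per cell cannot be told apart.

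Against MEF, most of these genes were lower in each treatment, and Itga3 and Itgb7 were higher. Under carbidopa 2 of 31 tested genes rose and 23 fell, that is 80.6% called, where 37.7% of all tested genes were called (18% higher and 19.7% lower). Under LY-364947 2 rose and 20 fell (71% called, against 31% of all genes, 13.7% higher and 17.2% lower), and under CHIR-99021 2 rose and 20 fell (71% called, against 38.8% of all genes, 18.7% higher and 20.1% lower). Itgal, Itgax and Lamb3 passed the filter only through MEF and Itgb7 only through the treated groups. For these genes the filter set the direction that a call could take. Itgb8 passed through every group but CHIR-99021, so the same held for it in comparisons with CHIR-99021. With at least 10 counts in every library, 1 rose and 19 fell under carbidopa (2394 and 2561 of all genes). Under LY-364947 it was then 1 and 17 (1780 and 2185), and under CHIR-99021 1 and 16 (2504 and 2674). Over the 31 genes the log2 fold changes had a median of -1.02, -0.91 and -0.92 in that order, and the median over all tested genes was 0.04, 0.03 and 0.04. A gene was called at an adjusted p under 0.05 in the quasi-likelihood test of edgeR over all 15154 genes, and log2 fold changes below are given ± SE. The 3 comparisons share the MEF libraries, so their values are set side by side and not counted as separate support for one another.

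**Figure D1:**
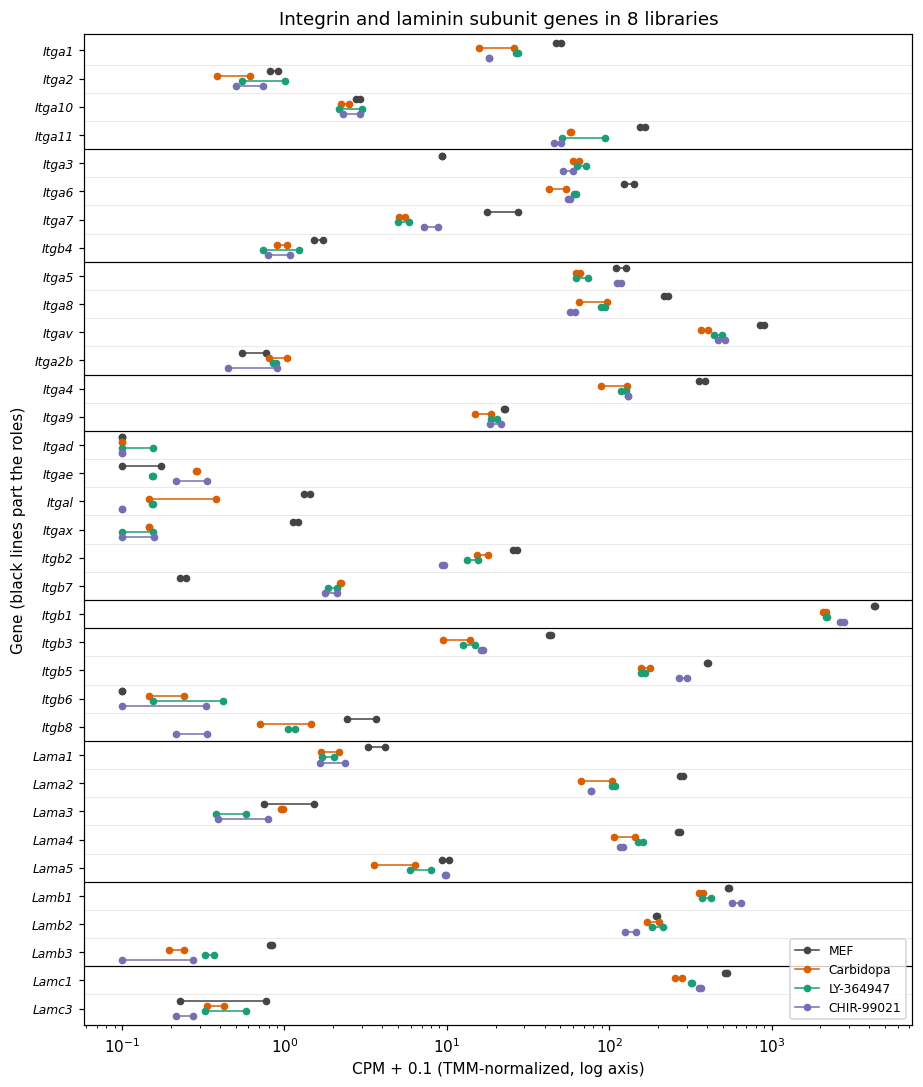
Level of each of the 35 genes in each library, as TMM-normalized CPM plus 0.1 on a log axis, with the 2 libraries of a group joined by a line and the roles parted by black lines. Itga3 and Itgb7 lie above MEF in all treated libraries, while Itgb1, Itgav, Itga4, Lama2 and Lama4 lie below it.

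Scaling by library size alone, with no factor for composition, moved the median of all genes to 0.29, 0.25 and 0.26 and the split over all genes under carbidopa from 2732 higher and 2985 lower to 5542 higher and 1956 lower. Under that scaling the members called were 2 higher and 21 lower under carbidopa, 2 and 18 under LY-364947, and 3 and 17 under CHIR-99021. Over all genes 4232 were then higher and 1814 lower under LY-364947, and 5115 and 2217 under CHIR-99021. Of the 69 calls of members against MEF, 55 were made in every one of the 15 alternatives in which the gene had a value, and the 14 others are named with their genes below.

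The alpha3, alpha6 and alpha7 chains pair with beta1 to form the main laminin receptors, and alpha6 also pairs with beta4 in hemidesmosomes. Itga3 had 9.30 and 9.29 CPM in MEF. It had 59.4 and 65.2 CPM under carbidopa, 63.7 and 72.4 under LY-364947, and 59.5 and 52.1 under CHIR-99021. Every treated library was thus at least 5 times the level of either MEF library, and the log2 fold changes were 2.74 ± 0.13, 2.87 ± 0.13 and 2.59 ± 0.13 (edgeR adjusted p = 1.41e-07, 1.07e-07 and 2.04e-07). Itga3 was the integrin or laminin gene with the largest rise among those with over 10 reads in every library.

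Itga6 and Itga7 went the other way. Itga6 had 141 and 124 CPM in MEF, 53.8 and 42.3 under carbidopa, 60.6 and 62.7 under LY-364947, and 57.4 and 55.5 under CHIR-99021. On the log2 scale it differed from MEF by -1.46 ± 0.13, -1.10 ± 0.13 and -1.23 ± 0.13, and no treated library reached an MEF library. Itga7, the alpha chain of muscle laminin receptors, had 27.3 and 17.6 CPM in MEF and 4.94 to 8.75 CPM in the 6 treated libraries, with log2 fold changes of -2.10 ± 0.22, -2.06 ± 0.23 and -1.49 ± 0.22. The 6 skeletal muscle markers summed to 47.0 to 50.3 CPM in MEF and 6.68 to 17.2 CPM in treated libraries. Of these, 2 were tested, Des and Acta1, and both fell in each comparison, where 19.7%, 17.2% and 20.1% of all genes fell. Myod1, Myog, Myh3 and Ckm held 0 to 4 reads each per library, in MEF as well. The part of muscle cells in the fall of Itga7 was not tested. Itgb4 was low throughout, at 1.42 to 1.64 CPM in MEF and 0.64 to 1.12 CPM in treated libraries, and was not called (log2 fold changes -0.81, -0.79 and -0.86, adjusted p = 0.139, 0.175 and 0.128).

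Since one rose while the others fell, the make-up of the class differed while its sum did not move as far. Levels were divided by exon length for this comparison between genes. The summed level of Itga3, Itga6 and Itga7 was 20.7 and 17.5 CPM per kb in MEF, 17.0 and 16.8 under carbidopa, 18.5 and 20.3 under LY-364947, and 17.9 and 16.2 under CHIR-99021, so that treated and MEF libraries overlapped under LY-364947 and CHIR-99021. Itga3 made up 7.88% and 9.28% of that sum in the MEF libraries and 56.5% to 68% in treated libraries. Itga6 made up 75.8% and 78.3% in MEF and 27.9% to 38.1% in treated libraries. The shares depend on the length used: with coding length in place of exon length, a choice made after seeing the data, Itga3 was 5.63% in MEF, 53.6% under carbidopa, 49.9% under LY-364947 and 46.1% under CHIR-99021, and Itga6 was then 81.7%, 42.1%, 46.4% and 47.7%, so that Itga6 and not Itga3 was the larger under CHIR-99021. No test was run on shares.

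**Figure D2:**
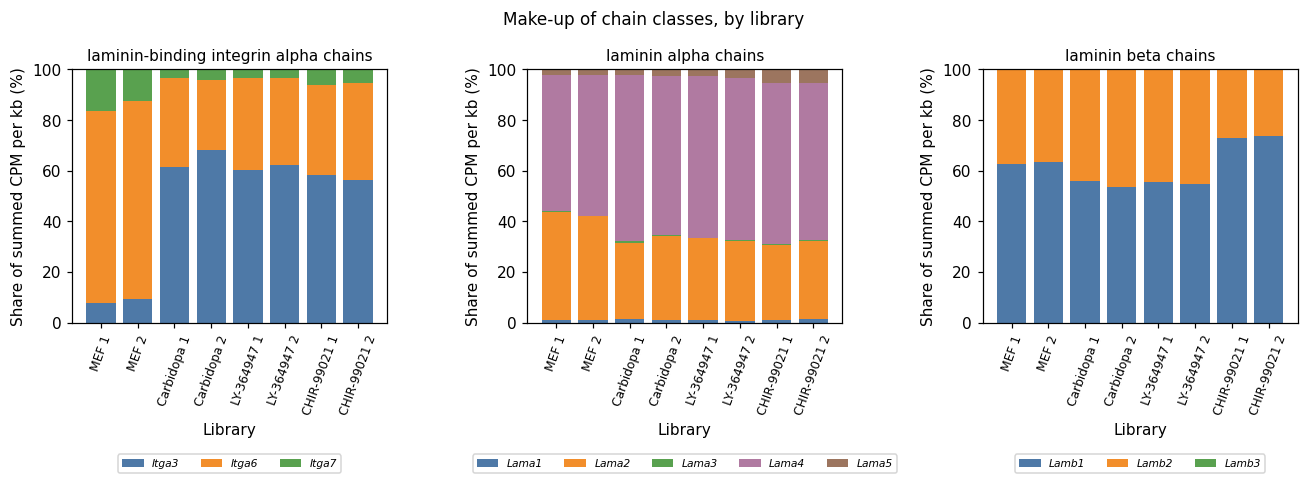
Share of each chain in the summed CPM per kb of its class, in percent, for each of the 8 libraries. Itga3 goes from under 10% of the laminin-binding integrin alpha chains in both MEF libraries to over 56% in all treated libraries, and Lamb1 is the larger laminin beta chain in all libraries and largest under CHIR-99021.

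The start sites of Itga3, Itgb7 and Lama2 are shown because Itga3 and Itgb7 had the largest rises and Lama2 fell furthest among the well-counted laminins. RefSeq promoter windows of GRCm38.p6 were found for 22 of the 35 genes, with 25 start sites in all, and the site shown for Itga3 is the one nearest the start of the annotated gene. Each line gives the 250 bases before a start site, 5′ to 3′ on the strand of the gene, which is the minus strand for these 3 genes. Capitals mark motif matches on either strand. The Itga3 window is chr11:95076715-95076964, the Itgb7 window chr15:102231936-102232185 and the Lama2 window chr10:27616943-27617192. In the GENCODE M21 annotation of GRCm38 the genes lie at chr11:95044474-95076801 (Itga3), chr15:102215995-102231944 (Itgb7) and chr10:26980036-27619758 (Lama2), so that the first 2 windows reach over the 5′ end of the gene and the Lama2 window lies within the annotated gene.
Itga3: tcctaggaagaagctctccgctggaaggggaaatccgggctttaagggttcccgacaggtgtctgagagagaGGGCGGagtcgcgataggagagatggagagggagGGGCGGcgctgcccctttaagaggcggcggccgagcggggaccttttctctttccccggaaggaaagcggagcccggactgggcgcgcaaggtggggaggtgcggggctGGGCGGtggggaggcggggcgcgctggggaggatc
Itgb7: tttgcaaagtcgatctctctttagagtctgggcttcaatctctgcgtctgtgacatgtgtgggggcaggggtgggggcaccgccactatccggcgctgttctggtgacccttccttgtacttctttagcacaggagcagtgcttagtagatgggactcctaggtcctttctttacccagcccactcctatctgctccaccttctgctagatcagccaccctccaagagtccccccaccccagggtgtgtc
Lama2: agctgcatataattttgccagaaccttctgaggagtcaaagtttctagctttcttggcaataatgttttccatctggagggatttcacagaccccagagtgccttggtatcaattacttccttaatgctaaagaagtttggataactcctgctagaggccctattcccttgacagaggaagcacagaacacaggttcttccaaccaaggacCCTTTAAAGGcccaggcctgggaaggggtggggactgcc
The capitals in Itga3 are 3 copies of the GC box GGGCGG, a motif that 35.7% of 32851 promoters and 11 of the 25 member start sites held. The capitals in Lama2 are a CArG box, the site of serum response factor, held by 1.63% of all promoters and by 2 of the 25. Over the 25 member start sites the AP-1 motif TGANTCA was found in 3 (7.81% of all promoters), the TEAD motif GGAATG in 3 (14.7%), the TCF/LEF motif CTTTGAT in 0 (3.73%) and the SMAD motif GTCTAGAC in 0 (0.213%), in windows that also take in 50 bases after the start. These matches describe letters in these windows only.

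Integrins with alphaV, alpha5, alpha8 or alphaIIb recognise the RGD sequence of fibronectin, vitronectin and related proteins. Itgav, the integrin alpha gene with the highest level per kb in all 4 groups, had 853 and 902 CPM in MEF, 403 and 368 under carbidopa, 492 and 439 under LY-364947, and 466 and 518 under CHIR-99021. On the log2 scale it differed from MEF by -1.19 ± 0.11, -0.91 ± 0.11 and -0.84 ± 0.11, and treated and MEF libraries did not overlap. Itga8 had 218 and 230 CPM in MEF and 57.4 to 97.0 CPM in treated libraries, with log2 fold changes of -1.47 ± 0.16, -1.29 ± 0.16 and -1.92 ± 0.16.

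Itga5, whose product with beta1 is the classical fibronectin receptor, separated the treatments. It had 126 and 111 CPM in MEF, 62.1 and 65.7 under carbidopa, 62.4 and 73.5 under LY-364947, and 119 and 112 under CHIR-99021. It fell under carbidopa (-0.89 ± 0.12) and under LY-364947 (-0.80 ± 0.12), and under CHIR-99021 its libraries lay within the range of MEF, with a log2 fold change of -0.04 and a 95% interval of -0.29 to 0.22. Itga2b, a platelet gene, stayed between 0.35 and 0.93 CPM in all libraries and was not called in any comparison.

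Itga1 and Itga11 encode collagen receptors of mesenchymal cells. Itga11 had 165 and 155 CPM in MEF, 57.1 and 57.8 under carbidopa, 93.5 and 51.3 under LY-364947, and 50.2 and 45.9 under CHIR-99021. It fell in each comparison (-1.48 ± 0.22, -1.14 ± 0.21 and -1.73 ± 0.22), and the LY-364947 libraries were the furthest apart from each other. Itga1 had 46.8 and 50.1 CPM in MEF and 15.6 to 27.4 CPM in treated libraries, with log2 fold changes of -1.23 ± 0.19, -0.84 ± 0.19 and -1.42 ± 0.19. Its call under LY-364947 was lost without MEF replicate 2 (adjusted p = 0.0555) or LY-364947 replicate 1 (adjusted p = 0.053). Itga2 at 0.28 to 0.91 CPM and Itga10 at 2.08 to 2.92 CPM were not called, and 33.5% of the exon bases of Itga10 lie under another gene on the same strand, so its counts are uncertain.

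The alpha4 and alpha9 chains bind VCAM-1, fibronectin variants and tenascin. Itga4 had 358 and 389 CPM in MEF, 89.0 and 129 under carbidopa, 127 and 119 under LY-364947, and 130 and 131 under CHIR-99021. Its log2 fold changes of -1.78 ± 0.15, -1.61 ± 0.15 and -1.52 ± 0.15 were larger in size than those of Itgav in each comparison. Itga9 had 22.5 and 22.6 CPM in MEF and 14.9 to 21.5 CPM in treated libraries. It was called under carbidopa (-0.42 ± 0.14, adjusted p = 0.0426), and that call was lost in 12 of 15 alternatives, among them DESeq2 (adjusted p = 0.0548) and the fits without MEF replicate 1 (0.146), MEF replicate 2 (0.162) and carbidopa replicate 1 (0.152).

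Itgb1 encodes beta1, the common partner, and had the highest level per kb of the 35 genes in every group (1052 CPM per kb in MEF, where Itgb5 was next among beta chains at 113). It had 4262 and 4325 CPM in MEF, 2061 and 2170 under carbidopa, 2195 and 2161 under LY-364947, and 2627 and 2787 under CHIR-99021. It was lower by about the same factor under carbidopa and LY-364947 (-1.02 ± 0.09 and -0.98 ± 0.09) and by less under CHIR-99021 (-0.67 ± 0.09). Beta3, beta5, beta6 and beta8 pair with alphaV. Itgb3 had 42.5 and 43.5 CPM in MEF and 9.42 to 16.6 CPM in treated libraries (-1.89 ± 0.17, -1.66 ± 0.17 and -1.39 ± 0.17). Itgb5 had 406 and 399 CPM in MEF, 179 and 156 under carbidopa, 158 and 166 under LY-364947, and 303 and 269 under CHIR-99021. On the log2 scale it differed from MEF by -1.26 ± 0.11, -1.31 ± 0.11 and -0.49 ± 0.11, the last of which was not called without CHIR-99021 replicate 2 (adjusted p = 0.0514) or when scaled by library size alone (0.0578).

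Itgb8, whose product with alphaV activates latent TGF-beta, was low and fell furthest under CHIR-99021. It had 48 and 36 reads in MEF, 13 and 29 under carbidopa, 19 and 18 under LY-364947, and 2 and 4 under CHIR-99021. Its log2 fold changes under carbidopa and LY-364947 were -1.57 ± 0.42 and -1.53 ± 0.43, and these calls were lost without MEF replicate 1 (adjusted p = 0.136 and 0.174), without carbidopa replicate 1 (0.0644) and without LY-364947 replicate 1 or 2 (0.09 and 0.119). Under CHIR-99021 the level was 16.7-fold lower than in MEF (95% counting interval 7.37 to 46.9). Itgb6 was not tested, with 0 to 6 reads per library.

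**Figure D3:**
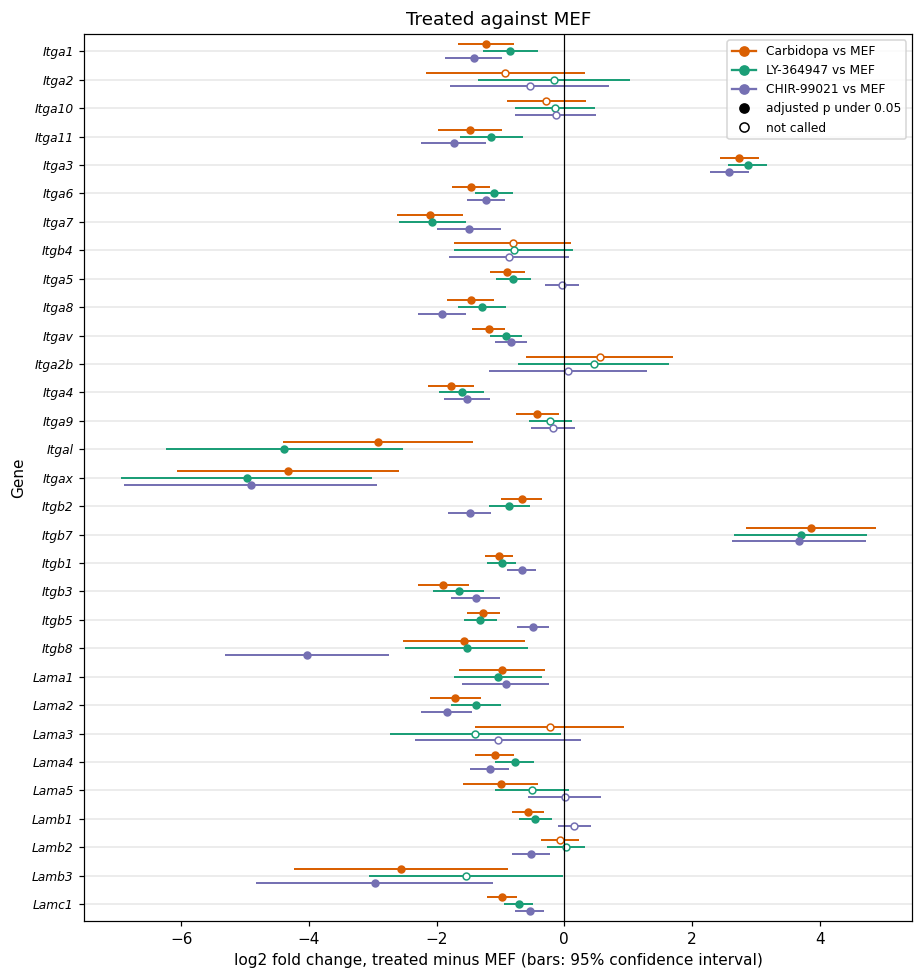
log2 fold change of the 31 tested genes in each treatment against MEF, with 95% confidence intervals as bars and filled points for an adjusted p under 0.05. Itga3 and Itgb7 stand to the right of 0 with filled points and most other genes to the left, and the CHIR-99021 point of Itgal is left out because both of its libraries held 0 reads.

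Beta2 and beta7 are the beta chains of leukocytes, beta2 pairing with alphaL, alphaM, alphaX and alphaD, and beta7 with alpha4 or alphaE. Itgal had 18 and 19 reads in MEF, 1 and 6 under carbidopa, 1 and 1 under LY-364947, and 0 in both CHIR-99021 libraries. Against MEF it was 7.79-fold lower under carbidopa (95% counting interval 3.43 to 20.7), 23.4-fold lower under LY-364947 (6.03 to 200) and at least 14.7-fold lower under CHIR-99021, taking the limit of 3 reads that a count of 0 over the group allows (the lower 95% counting limit, which also takes in the error of the MEF reads, was 11.4). Without carbidopa replicate 2 the fitted log2 fold change under carbidopa moved from -2.91 to -4.57. Itgax had 15 and 16 reads in MEF and 0 or 1 read in each treated library. Both passed the filter only through their MEF libraries, and Itgal was not called under carbidopa without MEF replicate 1 or 2 (adjusted p = 0.056 and 0.0521). Intervals and limits from reads cover counting error only.

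Itgb2 had 26.9 and 25.6 CPM in MEF, 15.2 and 17.8 under carbidopa, 13.3 and 15.5 under LY-364947, and 9.27 and 9.46 under CHIR-99021, with log2 fold changes of -0.67 ± 0.14, -0.86 ± 0.14 and -1.48 ± 0.14. Leukocyte genes moved with it. The summed level of 16 macrophage and leukocyte markers was 1250 to 1300 CPM in MEF, 410 to 425 under carbidopa, 306 to 318 under LY-364947 and 99.1 to 108 under CHIR-99021, and 13, 13 and 14 of the 14 tested markers fell, against 19.7%, 17.2% and 20.1% of all genes. Ptprc, which encodes the pan-leukocyte phosphatase CD45, was at 17.4% to 21.9% of its MEF mean under carbidopa, 18% to 20.1% under LY-364947 and 5.91% to 6.14% under CHIR-99021. Fermt3, the kindlin of blood cells that activates these integrins, was at 57.9% to 66.8%, 41.4% to 45% and 11.4% to 14.6%. Itgb2 itself was at 57.9% to 67.8%, 50.8% to 59.2% and 35.4% to 36.1%, above the marker sum in every treated library. That sum leans on Lyz2, with a mean of 748 CPM in MEF. Fermt3 also lay above the sum in every treated library. The marker Cd14 lay above Itgb2, at 76.1% to 79.4%, 73.6% to 76.2% and 59.3% to 67.6%. The markers Csf1r, Adgre1 and Ptprc lay below Itgb2 in every treated library. Cd53 held 480 and 662 reads in MEF, 573 and 631 under carbidopa, 418 and 479 under LY-364947, and 121 and 134 under CHIR-99021. As a share of the MEF mean it lay above Itgb2 under carbidopa and LY-364947 and below it under CHIR-99021. C1qb lay above Itgb2 in carbidopa replicate 1 (518 reads, against 485 and 583 in MEF). Itgb2 thus lay within the spread of these markers. The part of leukocytes in the levels of Itgb2, Itgal and Itgax was not tested, and the 5 T cell and B cell markers held 0 to 3 reads each per library.

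**Figure D4:**
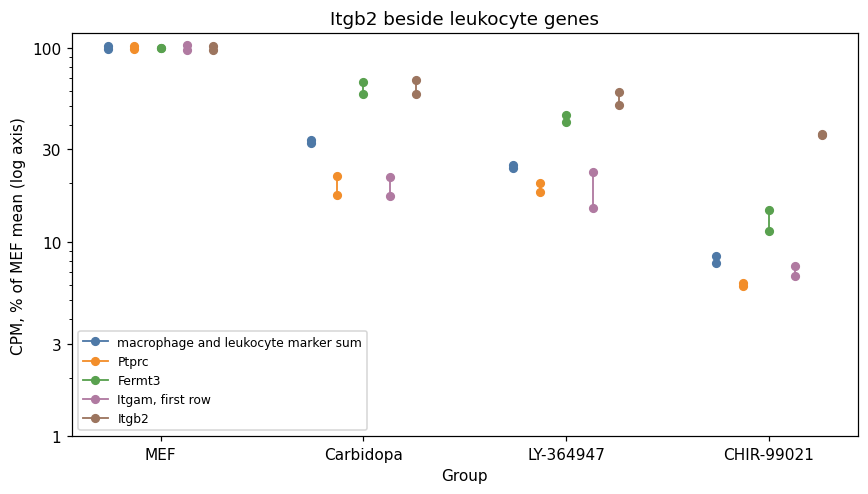
Itgb2, the summed macrophage and leukocyte markers, Ptprc, Fermt3 and the first of the 2 Itgam rows in each library, as CPM in percent of the MEF mean on a log axis. Itgb2 and Fermt3 lie above the marker sum in all 6 treated libraries and all are lowest under CHIR-99021.

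Itgb7 ran against the other leukocyte integrins. It had 2 reads in each MEF library, 45 and 45 under carbidopa, 36 and 33 under LY-364947, and 35 and 29 under CHIR-99021. It was 15.3-fold higher under carbidopa (95% counting interval 5.76 to 57.2), 13.6-fold higher under LY-364947 (5.09 to 51.5) and 13.4-fold higher under CHIR-99021 (4.98 to 50.6), at about 2 CPM in all treated groups, and it passed the filter only through these groups. The alpha chains that pair with beta7 were not called higher, since Itga4 fell as given above and Itgae had 0 to 4 reads in any library.

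Lama2 and Lama4, the alpha chains of mesenchymal and vascular laminins, made up nearly all of the laminin alpha level and fell in each comparison. Lama2 had 284 and 271 CPM in MEF, 66.6 and 104 under carbidopa, 104 and 108 under LY-364947, and 77.3 and 77.2 under CHIR-99021. On the log2 scale it differed from MEF by -1.70 ± 0.17, -1.39 ± 0.17 and -1.84 ± 0.17. Lama4 had 265 and 271 CPM in MEF, 107 and 144 under carbidopa, 151 and 162 under LY-364947, and 122 and 116 under CHIR-99021 (-1.09 ± 0.13, -0.78 ± 0.13 and -1.17 ± 0.13). Lama2 fell further than Lama4 in each comparison, and its share of the laminin alpha level was 41.2% and 42.6% in the MEF libraries and 29.8% to 33.3% in treated libraries. The sum over the 5 alpha chains was 40.8 and 40.3 CPM per kb in MEF and 13.6 to 20.9 CPM per kb in treated libraries, under carbidopa replicate 1 the lowest.

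Lama5, the alpha chain of laminins of mature basement membranes, had 10.3 and 9.23 CPM in MEF, 3.48 and 6.25 under carbidopa, 5.84 and 7.88 under LY-364947, and 9.85 and 9.69 under CHIR-99021. It fell under carbidopa (-0.998 ± 0.259, adjusted p = 0.013, and 0.0789 without MEF replicate 1), the value being -0.64 without carbidopa replicate 1 and -1.48 without carbidopa replicate 2. It was not called under LY-364947 (-0.503, adjusted p = 0.167), ranging from -0.74 to -0.30 without 1 library, and was called without carbidopa replicate 1 or 2 (0.035 and 0.0368) and with only the groups compared (0.0331). Under CHIR-99021 it lay within the range of MEF (0.01, 95% interval -0.55 to 0.56). Lama1, the chain of the embryonic laminin-111, had 4.09 and 3.16 CPM in MEF and 1.56 to 2.26 CPM in treated libraries. It was called lower in each comparison (-0.98 ± 0.30, -1.04 ± 0.30 and -0.92 ± 0.30), but each call was lost with DESeq2 (adjusted p = 0.0588, 0.0583 and 0.0794) and without MEF replicate 1 (0.166, 0.163 and 0.199). The calls were also lost without MEF replicate 2 (0.0518 under carbidopa and 0.0617 under CHIR-99021), carbidopa replicate 2 (0.069), LY-364947 replicate 1 or 2 (0.071 and 0.145) and CHIR-99021 replicate 1 (0.219), and when scaled by library size alone (0.064, 0.0547 and 0.0788). Lama3 stayed at 0.28 to 1.41 CPM and was not called.

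Lamb1 and Lamb2 are the common beta chains, Lamb2 being the chain of neuromuscular and kidney basement membranes. Lamb1 had 542 and 548 CPM in MEF, 356 and 380 under carbidopa, 371 and 424 under LY-364947, and 645 and 571 under CHIR-99021. It fell under carbidopa (-0.57 ± 0.11) and LY-364947 (-0.45 ± 0.11), the latter call being lost without MEF replicate 1 or 2 or LY-364947 replicate 1 (adjusted p = 0.0625, 0.0762 and 0.112) and when scaled by library size alone (0.121). Under CHIR-99021 both libraries lay above MEF but the difference was not called (0.16 ± 0.11, adjusted p = 0.271), and it was called only when scaled by library size alone (adjusted p = 0.0174). Lamb2 had 198 and 194 CPM in MEF, 171 and 203 under carbidopa, 183 and 216 under LY-364947, and 147 and 125 under CHIR-99021. It was the reverse of Lamb1, overlapping MEF under carbidopa and LY-364947 (-0.07, 95% interval -0.35 to 0.22, and 0.03, -0.26 to 0.31) and falling under CHIR-99021 (-0.52 ± 0.13), a call lost without MEF replicate 1 or 2 (adjusted p = 0.0639 and 0.0544) or CHIR-99021 replicate 2 (0.089) and when scaled by library size alone (0.0744).

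Per kb, Lamb1 made up 62.6% and 63.4% of the beta chains in the MEF libraries, 53.4% and 56.1% under carbidopa, 54.6% and 55.4% under LY-364947, and 72.9% and 73.6% under CHIR-99021. The share of Lamb1 therefore lay below MEF in the libraries of carbidopa and LY-364947 and above MEF in those of CHIR-99021. With coding length the mean shares were 73.5%, 66.4%, 66.7% and 81.8% in the same order. Lamb3, a chain of epithelial laminins, had 10 and 11 reads in MEF and 0 to 5 in treated libraries, and passed the filter only through MEF. It was 6.19-fold lower under carbidopa (95% counting interval 2.27 to 21) and 8.37-fold lower under CHIR-99021 (2.5 to 43.8), and both calls were lost with DESeq2 (adjusted p = 0.0847 and 0.0591), without MEF replicate 1 (0.104 and 0.0792), without MEF replicate 2 (0.106 and 0.0833), without carbidopa replicate 1 or 2 (0.063 and 0.0726) and without CHIR-99021 replicate 2 (0.111). Without CHIR-99021 replicate 1 the fitted log2 fold change under CHIR-99021 moved from -2.97 to -6.71, the library left having 0 reads. Under LY-364947 Lamb3 was not called (-1.54, adjusted p = 0.116) except with only the groups compared (0.0368).

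Lamc1, the common gamma chain of laminins, had 534 and 519 CPM in MEF, 254 and 282 under carbidopa, 321 and 323 under LY-364947, and 368 and 357 under CHIR-99021. It fell in each comparison (-0.97 ± 0.10, -0.71 ± 0.10 and -0.54 ± 0.10). Lamc3, the other gamma chain described, was not tested, with 2 to 9 reads per library.

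Markers of epithelial cells also differed between groups. The 6 simple epithelium markers summed to 3.10 to 4.16 CPM in MEF and 9.82 to 21.4 CPM in treated libraries. Of these Krt19, a keratin, was called higher in each comparison (2.48 ± 0.30, 1.77 ± 0.31 and 1.36 ± 0.31), and Krt18, another keratin, and Cldn4, a claudin of tight junctions, only under CHIR-99021 (2.37 ± 0.40 and 3.70 ± 0.60). Cdh1, Epcam and Krt8 were not tested, with 0 to 6 reads each per library. The 6 markers of stratified epithelium summed to 1.48 to 1.56 CPM in MEF, 4.47 to 7.28 under carbidopa, 2.13 to 2.4 under LY-364947 and 3.54 to 4.66 under CHIR-99021. The basal keratin genes Krt5 and Krt14 had 0 or 1 read in MEF, 16 and 30 and 18 and 78 under carbidopa, and 0 to 2 in the other treated libraries. Sfn was called higher under CHIR-99021 (1.52 ± 0.31), Trp63, Col17a1 and Dsg3 had 0 to 4 reads per library, and none of the 3 tested markers of stratified epithelium was called under LY-364947. The part of epithelial cells in the levels of the laminin genes was not tested.

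The treatments were then compared with each other, in 3 pairs at the same dose, with p-values adjusted over all genes. Between LY-364947 and carbidopa 0 of 31 genes were called by edgeR, where 0.0132% of all genes were called. At an unadjusted p under 0.05 there were 4, and Itga6, Itgav, Lama4 and Lamc1 were higher under LY-364947 by 0.26 to 0.36 on the log2 scale, each with an adjusted p of 0.519. DESeq2 also called 0 members. A fit without 1 carbidopa library leaves that group with 1 library and takes its wide spread out of the estimate shared by all groups. Counts of calls from such fits therefore cannot show whether this 0 rested on 1 library. For Itga3 the difference was 0.13 with a 95% interval of -0.12 to 0.38.

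CHIR-99021 differed from both. Against carbidopa 6 genes were higher and 3 lower (29% called, against 14.7% of all genes, 6.62% higher and 8.08% lower), and against LY-364947 3 were higher and 4 lower (22.6% called, against 14.1% of all genes, 6.45% higher and 7.69% lower). Higher than under carbidopa were Itga5 (0.85 ± 0.12), Itgb1 (0.36 ± 0.09), Itgb5 (0.77 ± 0.11), Lama5 (1.00 ± 0.26, and 0.65 without carbidopa replicate 1), Lamb1 (0.73 ± 0.11) and Lamc1 (0.44 ± 0.10). Lower were Itgb2 (-0.81 ± 0.14), Lamb2 (-0.46 ± 0.13) and Itgb8, which was 5.67-fold lower (95% counting interval 2.4 to 16.3). With at least 10 counts in every library, where Itgb8 was not tested, 6 members were higher and 2 lower (946 and 1140 of all genes).

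Against LY-364947, Itga5 (0.76 ± 0.12), Itgb5 (0.82 ± 0.11) and Lamb1 (0.61 ± 0.11) were higher under CHIR-99021, and Itga8 (-0.63 ± 0.16), Itgb2 (-0.62 ± 0.15), Lamb2 (-0.55 ± 0.13) and Itgb8 (5.83-fold lower, 2.44 to 16.9) were lower. With at least 10 counts in every library, 3 members were higher and 3 lower (911 and 1148 of all genes). Itga3 was not called (-0.29, 95% interval -0.54 to -0.03, adjusted p = 0.128). The calls made in every alternative were those of Itga5, Itgb5 and Lamb1 against carbidopa and of Itga5 and Itgb5 against LY-364947.

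The other calls between treatments were lost in some alternatives, most of them fits without 1 library. In those fits the counts of members called moved, and so did the counts over all genes, and both are given as ranges in the last section. Leaving out a carbidopa library also moved the counts of CHIR-99021 against LY-364947. Carbidopa libraries enter that comparison only through the fit shared by all groups.

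**Figure D5:**
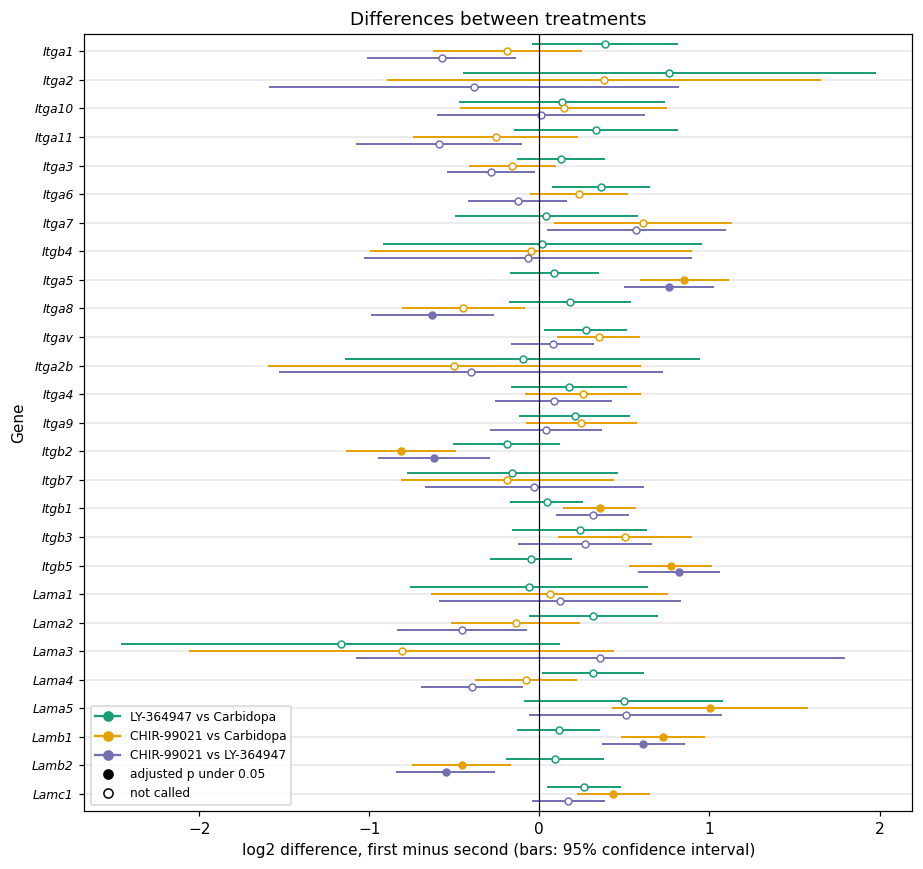
log2 difference between pairs of treatments for the tested genes not resting on a few reads, with 95% confidence intervals as bars and filled points for an adjusted p under 0.05. Itga5, Itgb5 and Lamb1 are higher under CHIR-99021 than with either other treatment, and no point of LY-364947 against carbidopa is filled.

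Adaptors and partners outside the family were read from lists of genes that bind these chains. Of 24 tested cytoplasmic adaptors of integrins 4 rose and 12 fell under carbidopa, 3 and 10 under LY-364947, and 7 and 9 under CHIR-99021, with median log2 fold changes of -0.51, -0.37 and 0.01. The share higher was thus 16.7%, 12.5% and 29.2%, where 18%, 13.7% and 18.7% of all genes were higher, and the share lower was 50%, 41.7% and 37.5%, where 19.7%, 17.2% and 20.1% of all genes were lower. Pxn, which encodes the focal adhesion scaffold paxillin, rose (1.59 ± 0.11, 1.66 ± 0.11 and 1.92 ± 0.11), as did Tns2, which encodes a tensin (1.31 ± 0.10, 1.41 ± 0.10 and 1.07). Actn4, which encodes the actin crosslinker alpha-actinin-4, fell (-2.54 ± 0.12, -1.11 ± 0.11 and -1.28 ± 0.11), as did Zyx, which encodes zyxin (-1.18 ± 0.09, -1.21 ± 0.09 and -0.69 ± 0.09).

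Most matrix ligands fell. Of 18 tested integrin ligands other than laminins 3 rose and 13 fell under carbidopa, 2 and 13 under LY-364947, and 3 and 11 under CHIR-99021, with medians of -1.37, -0.995 and -1.32. The share lower was 72.2%, 72.2% and 61.1%, against 19.7%, 17.2% and 20.1% of all genes. Fbln5, an RGD protein of elastic fibres, fell in each (-2.70 ± 0.10, -2.51 ± 0.10 and -2.01 ± 0.10), as did the collagen I gene Col1a2 (-1.98 ± 0.10, -1.89 ± 0.10 and -2.30 ± 0.10). Fn1, which encodes fibronectin, the ligand of the Itga5 product, fell under CHIR-99021 too (-1.96), where Itga5 was not called, and by -2.79 and -2.34 under carbidopa and LY-364947.

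Of 16 tested basement membrane partners of laminins, 3 rose and 8 fell under carbidopa, 3 and 8 under LY-364947, and 3 and 7 under CHIR-99021. In each comparison 18.8% were higher, against 18%, 13.7% and 18.7% of all genes, and 50%, 50% and 43.8% were lower, against 19.7%, 17.2% and 20.1%. The collagen IV genes Col4a1 and Col4a2 fell in each comparison (Col4a2 -1.82 ± 0.13, -1.504 ± 0.129 and -1.26 ± 0.13), whereas the nidogens, which link laminin to collagen IV, rose (Nid2 1.10 ± 0.11, 1.57 ± 0.11 and 0.53, and Nid1 1.17 ± 0.13, 1.37 ± 0.13 and 1.22 ± 0.13). Among 11 tested laminin receptors that are not integrins and their partners, 3 rose and 5 fell, 2 and 3, and 2 and 6. The share higher was 27.3%, 18.2% and 18.2% and the share lower 45.5%, 27.3% and 54.5%, beside the same shares of all genes. Cd151, a tetraspanin that binds laminin-binding integrins and most tightly alpha3beta1, rose beside Itga3 (1.23 ± 0.13, 1.07 ± 0.13 and 1.09 ± 0.13), and Cd44 fell (-2.61 ± 0.11, -2.73 ± 0.11 and -1.92 ± 0.11).

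TGF-beta and Wnt feedback genes, which read the pathways that LY-364947 and CHIR-99021 act on, were set beside the integrin and laminin genes. All 7 tested TGF-beta targets fell under both carbidopa and LY-364947, and 1 rose and 5 fell under CHIR-99021 (medians -2.14, -2.09 and -0.74), where 19.7%, 17.2% and 20.1% of all genes fell. Of 8 tested Wnt feedback genes 1 rose and 2 fell under both carbidopa and LY-364947, and 3 rose and 3 fell under CHIR-99021. The share higher was 12.5%, 12.5% and 37.5%, against 18%, 13.7% and 18.7% of all genes, and the share lower 25%, 25% and 37.5%, against 19.7%, 17.2% and 20.1%, so under carbidopa and LY-364947 the counts lay near those of all genes. Among them Lgr5 fell from a mean of 410 CPM to under 1 CPM in each treatment, and Tcf7 rose (2.34 ± 0.35, 2.64 ± 0.35 and 3.08 ± 0.34). Lef1 held 18 and 20 reads in MEF, 68 and 77 under CHIR-99021 and 15 to 33 in the other treated libraries. Axin2 held 35 and 27 reads in MEF, 32 and 33 under CHIR-99021 and 49 to 73 in the other treated libraries. The part of either pathway in the levels of integrin and laminin genes was not tested. Leaving out 1 library moved the smaller of these list counts by over 1.5 times: under carbidopa the adaptors higher were 2 to 5 and the ligands higher 1 to 4 (MEF replicates 1 and 2), and the receptors higher were 2 to 5 (carbidopa replicate 2) and lower 2 to 5 (MEF replicates 1 and 2). Under LY-364947 the adaptors higher were 2 to 6, the ligands higher 2 to 4, the basement membrane partners higher 2 to 5 and the receptors lower 2 to 6 (carbidopa replicates 1 and 2), and the partners lower were 5 to 8 (each MEF and LY-364947 library). Under CHIR-99021 the partners higher were 1 to 3 (MEF replicate 2), the receptors higher 1 to 4 and the TGF-beta targets higher 0 to 2 (MEF replicate 2 and either carbidopa library, and for the last either CHIR-99021 library).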

How the data were processed

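Gene expression was measured by RNA-seq in 8 libraries of MEFs, 2 untreated and 2 for each compound. The methods name an NEBNext Ultra kit and the labels a SMARTER kit. Reads were aligned to mm10 by the authors (STAR 2.4.2a) and assigned to genes with featureCounts, and raw read counts per gene were deposited. The annotation release and the use of strand are not given in the sources used here, so overlapping genes cannot be told apart. Positions and lengths are from GENCODE M21 of GRCm38, which held 50354 of the identifiers (99.6%).

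Groups and replicate numbers came from the sample labels. Counts were tested in R 4.3.3 with edgeR 4.0.16, using TMM, filterByExpr with a minimum count of 10, and 1 quasi-likelihood fit of group over all libraries, with Benjamini-Hochberg adjustment over 15154 genes and a threshold of 0.05. The biological variation was 11%. Totals of 15039566 to 20504338 counts set the precision. Genes with few reads have exact 95% intervals on reads, and a count of 0 allows up to 3 reads. Alternatives were DESeq2 1.42.0, RLE size factors, library size alone, no filter, at least 10 counts in every library, only the groups compared, a replicate block, and leaving out each library. The fit was tested on simulated data for carbidopa against MEF, where 82% of genes changed 2-fold and 97.1% of those changed 4-fold were called. Only a small part of the genes was changed there, and all groups had the same spread. The simulation therefore does not cover the wide changes and the unequal spread of these libraries.

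The members and lists were chosen with earlier results of these data known. Of the 36 genes that the rule found, 1 is not reported here and enters no count of members. From the other lists, genes among the 3 with the smallest p in a comparison with MEF are named, together with Fn1 and Nid1 as known ligand and partner. Further list genes are given by reads or level where they show how the rest of a list moved.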

Additional observations from a re-analysis of the deposited data

How the results depend on the processing

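Of the 69 calls of integrin and laminin genes against MEF, 55 were made in all 15 alternatives in which the gene had a value, and of those between treatments 3 of 9 (CHIR-99021 against carbidopa) and 2 of 7 (CHIR-99021 against LY-364947). Against MEF, every change of sign was in a gene not called in either fit, and the cause of the changes was not tested. Between treatments, 59 differences with an unadjusted p over 0.05 were not listed singly, and of their 843 recomputed values 49 had the other sign and 14 were past the threshold. For Lama5 under CHIR-99021 the log2 fold change was -0.032 with DESeq2 and -0.032 with RLE size factors, -0.011 with at least 10 counts in every library and -0.0063 with only the groups compared. With library size alone it was 0.021 for Lama3 and 0.18 for Lamb2 under carbidopa, 0.065 for Itga2, 0.078 for Itga10 and 0.0098 for Itga9 under LY-364947, and 0.081 for Itga10, 0.18 for Itga5 and 0.040 for Itga9 under CHIR-99021. Leaving out 1 library at a time gave ranges of -0.71 to 0.42 for Lama3 and -0.20 to 0.056 for Lamb2 under carbidopa, of -0.76 to 0.25 for Itga2, -0.41 to 0.078 for Itga10 and -0.098 to 0.14 for Lamb2 under LY-364947, and of -0.14 to 0.063 for Itga5, -0.66 to 0.54 for Itga2b, -0.078 to 0.084 for Lama5 and -0.32 to 0.037 for Itga10 under CHIR-99021.

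Counts of calls moved as follows. With library size alone the genes higher than in MEF were 5542, 4232 and 5115 for carbidopa, LY-364947 and CHIR-99021, and those lower under carbidopa were 1956. DESeq2 called 12 genes higher and 4 lower for LY-364947 against carbidopa, and no filter gave 201 and 128. In both, 8 members were lower for CHIR-99021 against LY-364947, and with no filter 5 were higher. With at least 10 counts in every library 1 member was higher than in MEF under each of carbidopa, LY-364947 and CHIR-99021, Itgb7 no longer being tested. With only the groups compared, 3294 genes were higher under LY-364947 than in MEF and 0 higher against carbidopa, CHIR-99021 against carbidopa gave 3 members and 402 genes higher and 1 member and 625 genes lower, and CHIR-99021 against LY-364947 gave 1810 genes higher, 1863 lower and 7 members lower. Leaving out 1 library gave, against MEF, 1293 to 3995 genes higher and 1849 to 4001 lower under carbidopa, 1146 to 3015 and 1695 to 3504 under LY-364947, and 1385 to 3981 and 2017 to 3825 under CHIR-99021. For LY-364947 against carbidopa it gave 0 to 8 members and 2 to 1953 genes higher and 0 to 1863 genes lower. For CHIR-99021 against carbidopa it gave 3 to 10 members and 288 to 2410 genes higher, and 0 to 8 members and 427 to 2222 genes lower. For CHIR-99021 against LY-364947 it gave 2 to 5 members and 216 to 2245 genes higher, and 0 to 8 members and 416 to 1983 genes lower. A group left with 1 library is assumed to vary like the others.

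Replicate numbers did not pair the samples (correlations of deviations from -0.161 to 0.128). With the replicate block the members called were 2 higher and 22 lower under carbidopa (2578 and 2895 of all genes). They were 2 and 20 under LY-364947 (1957 and 2467) and 2 and 20 under CHIR-99021 (2763 and 2959). For CHIR-99021 against carbidopa they were 5 higher and 2 lower (919 and 1091 of all genes), without Itgb1 (edgeR adjusted p = 0.0502) and Lamb2 (0.053). Genes with few reads limit what can be seen of Itgal, Itgax, Itgb8 and Lamb3.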
